A study of Mus musculus with 6 samples.

Results

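Integrins and leukocyte adhesion genes of stria vascularis were compared between adult Slc26a4+/+ and Slc26a4-/- mice. The set held every gene named by a probe set whose symbol begins with Itga or Itgb, apart from the Itgb1bp and Itgb3bp symbols, and 14 listed adhesion genes, from the intercellular adhesion molecule Icam1 to the selectins and the integrin activator Fermt3. It comprised 40 genes measured by 102 probe sets, out of 18193 genes and 45037 probe sets on the array. No measured value entered the choice, although earlier results of these data were known when it was made. For the comparison the 26 integrin genes were divided into 8 leukocyte integrins and 18 other integrins, the latter including Itgbl1, a secreted integrin-like protein that enters by its symbol. The integrin genes Itgad and Itga11 were not analysed here, since no probe set bears their names in the platform annotation used.

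Stria vascularis is the vascularised epithelium of the cochlear lateral wall that generates the endocochlear potential. RNA was measured on 6 Affymetrix mouse gene chips, 3 of Slc26a4+/+ and 3 of Slc26a4-/- mice of the 129S6 strain, with RNA of 2 animals pooled on each array and amplified in 2 rounds. Slc26a4 codes for the anion exchanger pendrin, and the Slc26a4-/- mice lacked functional pendrin in every tissue from conception, so that changes arising in stria cannot be told apart from those following changes elsewhere. The mice were not perfused, so blood cells in the capillaries could contribute RNA, and in RNA of a whole tissue a change in the number of cells of a type and a change in RNA per cell cannot be told apart.

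Integrins are receptors built of an alpha and a beta chain that bind matrix proteins or ligands on other cells. The chain coded by Itgb2 is made by leukocytes and pairs with Itgal, Itgam, Itgax or Itgad, while Itga4 pairs with Itgb1 or Itgb7 and binds Vcam1 and fibronectin. Circulating leukocytes roll on selectins, arrest when their integrins bind Icam1 or Vcam1 on endothelium, and hold on through talin and kindlin-3, the product of Fermt3, which attach to the integrin tail and activate it. The resident macrophages along strial capillaries carry integrins of the same kinds.

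Signals are GCOS intensities on a linear scale, and the fitted differences below are on the log2 scale, Slc26a4-/- minus Slc26a4+/+. Background on an array was taken from 44 probe sets of olfactory receptors at their 95th percentile. It came to 199.7, 269.5 and 319.2 on Slc26a4+/+ arrays against 187.1, 203.8 and 213.8 on Slc26a4-/- arrays. A signal therefore had to be higher on Slc26a4+/+ replicates 2 and 3 than on any other array to count as above it. The ratio of 3' to 5' Gapdh signal, high in degraded RNA, was 2.25, 7.19 and 10.5 on Slc26a4+/+ arrays against 3.70, 3.80 and 3.34 on Slc26a4-/- arrays, so Slc26a4+/+ replicates 2 and 3 stood apart. The Y-linked gene Eif2s3y had signals of 639.9 to 1541 on Slc26a4+/+ arrays against 3.1 to 3.6 on Slc26a4-/- arrays, and Xist had 770.6 to 3358 on Slc26a4+/+ arrays against 5529.6 to 5863 on Slc26a4-/- arrays. The sex of the animals and genotype cannot be told apart. Slc26a4 itself had signals of 1354, 1262 and 793 on Slc26a4+/+ arrays against 520.2, 717 and 618.5 on Slc26a4-/- arrays (adjusted p = 0.119), and the sources used here do not say where its probes lie relative to the deleted part.

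The 250 bases before the RefSeq transcription start on mouse build GRCm38.p6 were searched on both strands for 3 motifs of factors known to act on these genes. They were the PU.1 core GAGGAA, PU.1 being the factor of the myeloid lineage, the kB element GGAAATTCC bound by NF-kB, and the GAS element TTCNNNGAA bound by STAT factors. Windows are shown for Icam1, Cd44 and Itga4, whose RNA was higher in Slc26a4-/-, and for the macrophage integrin Itgam, whose RNA lay below background, each written 5' to 3' on the strand of the gene with matches in capitals.
Icam1 chr9:21015690-21015939 plus strand: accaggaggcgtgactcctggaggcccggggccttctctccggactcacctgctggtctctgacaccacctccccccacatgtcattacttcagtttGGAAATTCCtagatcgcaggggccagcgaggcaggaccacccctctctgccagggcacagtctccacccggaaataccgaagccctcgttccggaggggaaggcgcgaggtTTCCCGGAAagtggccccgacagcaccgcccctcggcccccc
Cd44 chr2:102901666-102901915 minus strand: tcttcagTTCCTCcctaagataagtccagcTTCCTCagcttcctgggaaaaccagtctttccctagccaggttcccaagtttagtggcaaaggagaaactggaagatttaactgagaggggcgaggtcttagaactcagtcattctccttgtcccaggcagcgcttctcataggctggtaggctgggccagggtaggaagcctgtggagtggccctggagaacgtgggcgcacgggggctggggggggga
Itga4 chr2:79255176-79255425 plus strand: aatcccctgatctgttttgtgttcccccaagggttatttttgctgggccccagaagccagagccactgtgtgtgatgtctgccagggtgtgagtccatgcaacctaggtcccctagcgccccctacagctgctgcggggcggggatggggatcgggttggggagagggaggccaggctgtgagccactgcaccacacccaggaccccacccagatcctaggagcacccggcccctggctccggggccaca
Itgam chr7:128062390-128062639 plus strand: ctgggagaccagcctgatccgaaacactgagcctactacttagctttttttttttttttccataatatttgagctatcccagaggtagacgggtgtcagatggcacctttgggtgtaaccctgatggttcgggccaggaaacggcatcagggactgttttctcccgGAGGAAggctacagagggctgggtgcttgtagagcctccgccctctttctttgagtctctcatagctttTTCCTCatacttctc

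The kB element occurred in 0.286% of the 32851 windows of all genes and, among the integrins and adhesion genes with a window, in Icam1 alone, 153 bases before the start. Icam1 also held a GAS element 42 bases before the start, a motif found in 7.02% of all windows, and Sele and Itga10 held one each. The PU.1 core was found in 23.3% of all windows, against 2 of 5 windows of leukocyte integrins, 6 of 16 of other integrins and 5 of 12 of adhesion genes. It stood on the opposite strand of Cd44, 243 and 220 bases before the start, and in Itgam 84 bases before the start and, on the opposite strand, 15 bases before it. The window of Itga4 held none of the 3. These matches describe letters in a window and are not evidence of binding, and the promoter windows of Itgb2, Vcam1 and Selplg were not analysed here.

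Of the 102 probe sets, 7 rose and 2 fell in Slc26a4-/- (limma, adjusted p under 0.05), where 1.19% and 0.54% of all probe sets were. The 9 that passed belonged to 8 genes. With each gene represented by its probe set of highest mean log2 signal, Itgb2, Itga4, Itga7, Icam1, Fermt3, Cd44 and Nrcam rose, and 0 of the 40 genes fell, against 1.88% higher and 0.803% lower among all genes. The other gene was Alcam, 2 of whose probe sets fell. At an unadjusted p under 0.05, 16 genes were higher and 3 lower, against 8.48% and 6.42% of all genes, so that the lower share was near that of the array. In 16 genes all Slc26a4-/- arrays lay above all Slc26a4+/+ arrays, against 11.2% of all genes, and in 4 genes all lay below, against 9.73%.

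**Figure D1:**
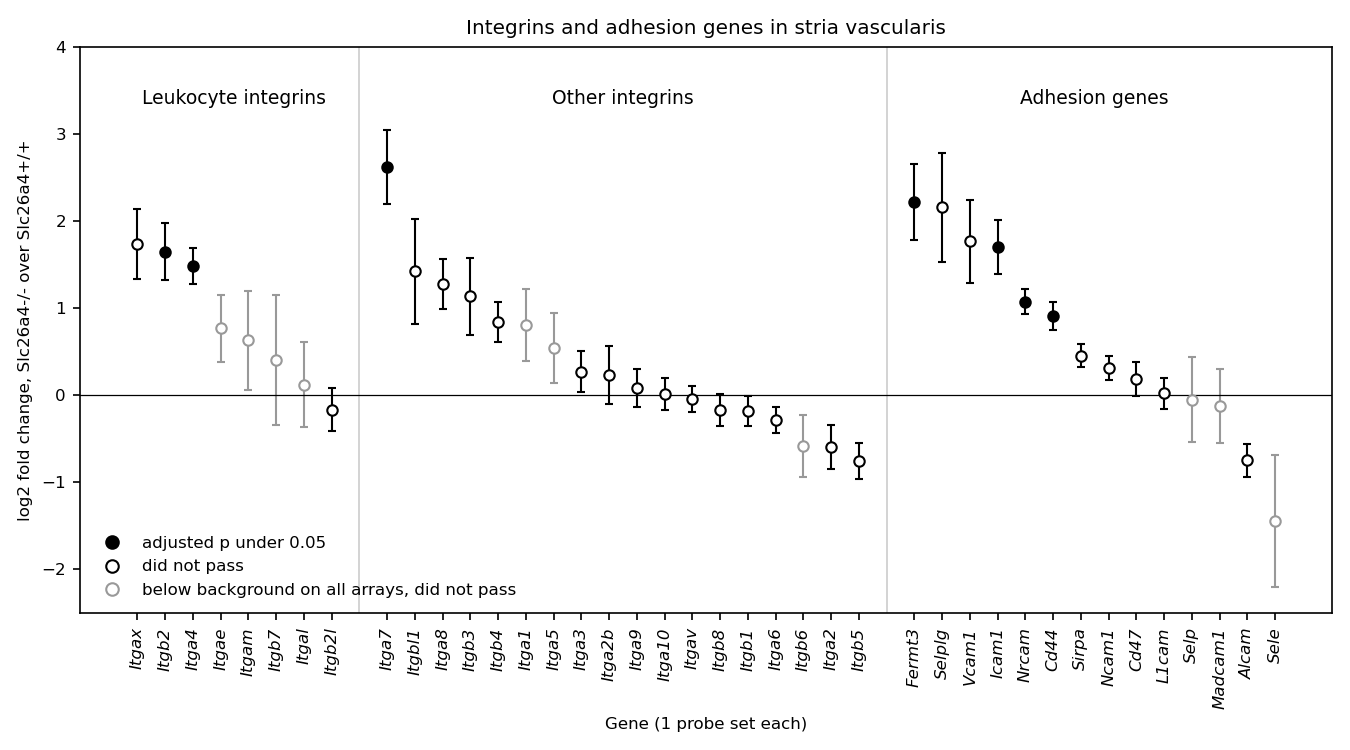
Fitted log2 fold change of each gene, Slc26a4-/- over Slc26a4+/+, with its standard error, from 3 arrays per genotype and for 1 probe set a gene. Filled points passed the threshold, open points did not, and grey points lay below background on all 6 arrays; the values run from -1.45 in Sele to 2.63 in Itga7, and the median was 0.70 in leukocyte integrins, 0.15 in other integrins and 0.38 in adhesion genes.

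Of the 40 genes 30 were above background on at least 2 arrays of a genotype, and the other 10 lay below it on all 6 arrays. The number of calls depended on single arrays, here and over all 45037 probe sets. The fit to all 6 arrays called 535 of the latter higher and 243 lower. Without any 1 Slc26a4-/- array 1 probe set of these genes was higher, that of Nrcam, and 0 were lower. Over all probe sets 165 to 198 were then higher and 54 to 68 lower. Without Slc26a4+/+ replicate 1 there were 11 higher and 8 lower, beside 1048 and 666 of all probe sets. Without Slc26a4+/+ replicate 2 there were 4 and 1, beside 308 and 76. Without Slc26a4+/+ replicates 2 and 3, the arrays with the highest Gapdh ratios, 13 were higher and 3 lower, an alternative chosen after seeing the data that assumes the lone Slc26a4+/+ array varies like the others. With Xist as a covariate 0 of these probe sets passed, and of all 45037 probe sets 27 were higher and 0 lower. The log2 differences were then 1.47 in Itga4, 0.82 in Cd44, 0.85 in Nrcam and 3.27 in Fermt3, but 0.86 in Itgb2 and 1.61 in Itga7.

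Among leukocyte integrins, Itgb2 and Itga4 rose, and Itgax was above background in Slc26a4-/- alone without passing the test. Itgb2, the shared beta chain of the leukocyte integrins, had signals of 100.5, 219 and 202 on Slc26a4+/+ arrays against 436, 676 and 465 on Slc26a4-/- arrays. Every Slc26a4-/- array lay above background and above every Slc26a4+/+ array, and no Slc26a4+/+ array reached background, so Itgb2 was at least 2.00-fold higher in Slc26a4-/- (log2 difference 1.65, SE 0.33, adjusted p = 0.0390). Itga4, which guides lymphocytes and monocytes to Vcam1, had signals of 161, 171 and 186 on Slc26a4+/+ arrays against 510.5, 454 and 487 on Slc26a4-/- arrays. Its genotypes did not overlap and it was at least 1.87-fold higher (log2 difference 1.49, SE 0.21, adjusted p = 0.00716). The call rests on that probe set, since the other 4 of Itga4 were above background on at most 1 array and did not pass. Itgax, which codes for CD11c of dendritic cells and some macrophages, had signals of 56.9, 177 and 140.2 on Slc26a4+/+ arrays against 355, 375 and 394 on Slc26a4-/- arrays. The bound of its fold on these arrays was 1.45, but the adjusted p of 0.0706 missed the threshold. Itgax passed without Slc26a4+/+ replicate 1 (adjusted p = 0.0273), but not without Slc26a4+/+ replicate 2 (0.0672) or 3 (0.0826). Without any 1 Slc26a4-/- array its adjusted p was 0.238 to 0.284. Its log2 difference of 1.74 was 2.72 without Slc26a4+/+ replicates 2 and 3 together, and 0.51 with Xist as a covariate.

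The remaining leukocyte integrins gave no call. Itgam, which codes for CD11b of macrophages and neutrophils, had signals of 67.8, 24.3 and 88.9 on Slc26a4+/+ arrays against 71.8, 79.4 and 94.9 on Slc26a4-/- arrays, below background on every array (adjusted p = 0.736). Itgal, the alpha chain of LFA-1, Itgae of intraepithelial lymphocytes and Itgb7, which pairs with both Itgae and Itga4, were also below background on all 6 arrays. Itgb2l, a relative of Itgb2, was near background in both genotypes (log2 difference -0.17, SE 0.25, adjusted p = 0.854). Without any 1 Slc26a4-/- array the adjusted p of Itga4 was 0.0546 to 0.0774 and that of Itgb2 0.120 to 0.206, and without Slc26a4+/+ replicate 2 that of Itgb2 was 0.0647.

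**Figure D2:**
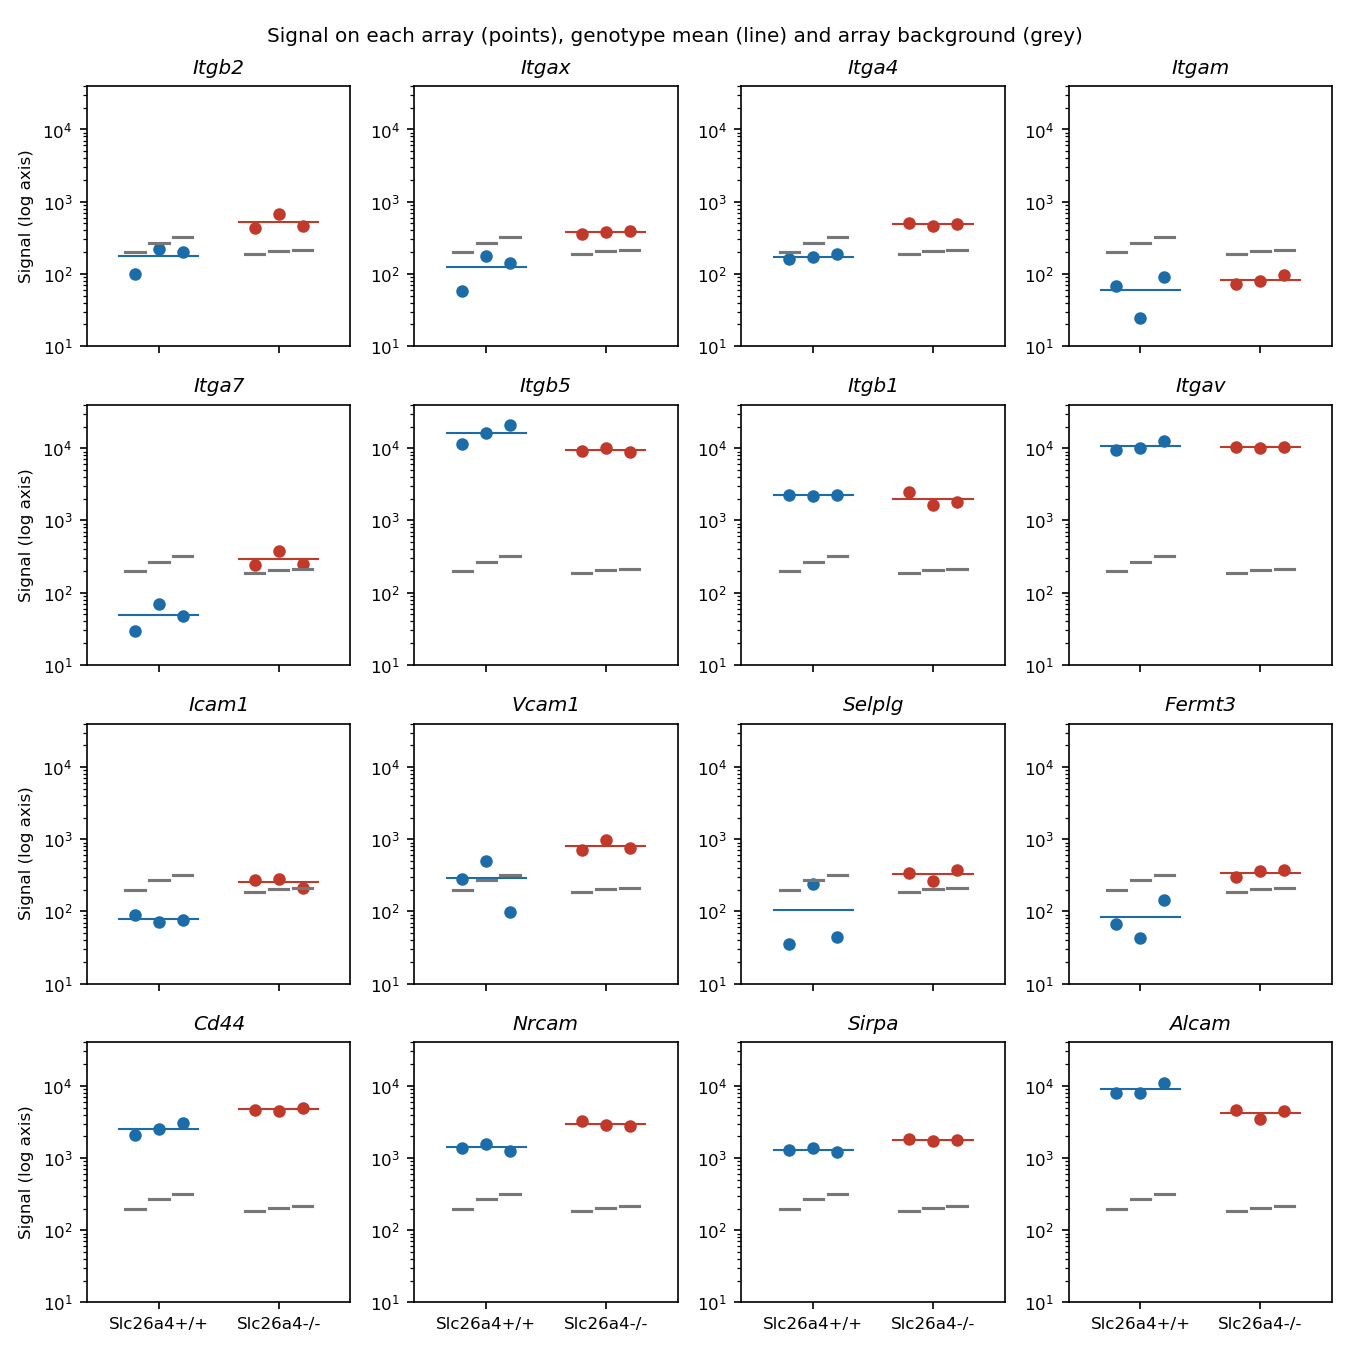
Signal of 16 genes on each array, on a log axis, with points for arrays in order of replicate, a line for the mean of a genotype and a grey bar for the background of each array. Alcam is drawn by the probe set with the lower adjusted p of the 2 that passed; Itgb2, Itga4 and Itgax lay below background in Slc26a4+/+ and above it in Slc26a4-/-, Itgam lay below it in both, and Itgav and Itgb1 overlapped between genotypes.

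Of the 18 other integrins, Itga7 rose and 0 fell. Itga7, a laminin receptor of muscle and Schwann cells, had signals of 29.1, 69.4 and 47.9 on Slc26a4+/+ arrays against 238, 379.6 and 251 on Slc26a4-/- arrays. All Slc26a4+/+ arrays were below background and all Slc26a4-/- arrays above it, which makes Itga7 at least 1.10-fold higher (log2 difference 2.63, SE 0.43, adjusted p = 0.0146). Its adjusted p was 0.0761 to 0.121 without any 1 Slc26a4-/- array. Itga8, the receptor for nephronectin on mesenchymal cells, had a bound of 1.30-fold on these arrays and did not pass (adjusted p = 0.0666).

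The vitronectin receptor chain Itgav and the widely shared beta chain Itgb1 gave no difference beyond the spread. Itgav had signals of 9322, 10192 and 12485 on Slc26a4+/+ arrays against 10372.5, 10129.8 and 10365 on Slc26a4-/- arrays (log2 difference -0.04, SE 0.15, adjusted p = 0.948). Itgb1 had 2220.1, 2213 and 2235 on Slc26a4+/+ arrays against 2517, 1656 and 1794 on Slc26a4-/- arrays (log2 difference -0.18, SE 0.17, adjusted p = 0.742). In both genes the genotypes overlapped.

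Itgb5, a partner of Itgav, was lower on every Slc26a4-/- array in each of its 4 probe sets, with log2 differences of -0.55 to -0.88 and adjusted p values of 0.0545 to 0.138, none of which passed. Without Slc26a4+/+ replicate 1, the array of lowest Gapdh ratio, the probe set nearest the threshold had an adjusted p of 0.00674. Without Slc26a4+/+ replicate 2 it was 0.180, and without any 1 Slc26a4-/- array 0.19 to 0.26. Without Slc26a4+/+ replicates 2 and 3 its log2 difference of -0.88 was -0.49. Its Slc26a4+/+ signals, 7231, 9575 and 12385, rose in the order of the Gapdh ratios, while those of another Itgb5 probe set fell from 6042 to 4918. Itga6, the laminin receptor chain of epithelia, and Itga2, a collagen receptor, were also lower on every Slc26a4-/- array (log2 differences -0.29 and -0.59, adjusted p 0.508 and 0.389). Another Itga6 probe set, above background on all arrays, was lower on every Slc26a4-/- array too but did not pass (log2 difference -0.56, SE 0.15, adjusted p = 0.128). Itgb4, the hemidesmosome partner of Itga6, had a log2 difference of 0.84 (SE 0.23, adjusted p = 0.136). Itgb3 of platelets and osteoclasts and Itgbl1 had differences of 1.13 and 1.43 with adjusted p of 0.337 and 0.386. The collagen receptor Itga1, the fibronectin receptor Itga5 and the epithelial Itgb6 lay below background on all arrays. The platelet chain Itga2b, the laminin receptor Itga3, the tenascin receptor Itga9, the cartilage collagen receptor Itga10 and Itgb8, an activator of latent TGF-beta, had log2 differences between -0.17 and 0.27. For Itga9 this is the value of its probe set of highest signal, and another of its probe sets had 137.6, 24.5 and 65.9 on Slc26a4+/+ arrays against 250.6, 253 and 214 on Slc26a4-/- arrays. Those signals were above background in Slc26a4-/- alone and did not overlap, but did not pass (log2 difference 1.98, SE 0.56, adjusted p = 0.151).

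Leukocyte and other integrins were set side by side as a description. The test called 2 of 8 leukocyte integrins and 1 of 18 other integrins, where 1.88% of all genes were called higher. All Slc26a4-/- arrays lay above all Slc26a4+/+ arrays in 4 of the 8, Itga4, Itgae, Itgax and Itgb2, and in 4 of the 18, and below in 0 of the 8 and 3 of the 18, beside 11.2% above and 9.73% below among all genes. The median log2 difference was 0.70 in leukocyte integrins and 0.15 in other integrins, beside -0.03 over all genes. The leukocyte median lies between Itgae and Itgam, both below background on all arrays. Counting Itga4, whose beta chains include Itgb1, among the other integrins gave 1 and 2 calls. Without any 1 Slc26a4-/- array neither list held a call, and without Slc26a4+/+ replicate 1 each held 3. Without Slc26a4+/+ replicate 2 each held 1. Without Slc26a4+/+ replicates 2 and 3 the leukocyte list held 3 calls and the other list 4. The difference between the lists was not tested.

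The endothelial ligands of these integrins were next. Icam1, the ligand of Itgal and Itgam paired with Itgb2, rose. Its signals were 88.3, 72.1 and 76.9 on Slc26a4+/+ arrays against 276, 286 and 214 on Slc26a4-/- arrays. The genotypes did not overlap and all Slc26a4-/- arrays lay just above background, but all Slc26a4+/+ arrays lay below it and the Slc26a4-/- mean did not exceed the mean background of the Slc26a4+/+ arrays, so no fold is given (means 79.1 and 258.6, adjusted p = 0.0253). The adjusted p of Icam1 was 0.122 to 0.186 without any 1 Slc26a4-/- array, 0.0788 without Slc26a4+/+ replicate 2 and 0.0556 without Slc26a4+/+ replicates 2 and 3.

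Vcam1, the ligand of Itga4, had signals of 278, 492 and 97.7 on Slc26a4+/+ arrays against 716, 964 and 764 on Slc26a4-/- arrays. Every Slc26a4-/- array was higher, yet Slc26a4+/+ spread widely and the log2 difference of 1.77 (SE 0.48) did not pass (adjusted p = 0.126). Of the arrays with high Gapdh ratios, Slc26a4+/+ replicate 3 had the lowest of these signals and replicate 2 the highest of its genotype. Without Slc26a4+/+ replicate 1, 2 or 3 alone the adjusted p was 0.107, 0.0501 and 0.0814, and without any 1 Slc26a4-/- array 0.296 to 0.363. Without Slc26a4+/+ replicates 2 and 3 together the log2 difference was 1.54. With Xist as a covariate the log2 difference of Vcam1 was 0.41. The other Vcam1 probe sets were above background in Slc26a4-/- alone and did not overlap between genotypes. Their log2 differences of 1.31 and 0.86 did not pass (adjusted p = 0.267 and 0.485). The inducible endothelial selectins Sele and Selp and the mucosal addressin Madcam1 lay below background on all 6 arrays.

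On the leukocyte side, Fermt3 rose. Kindlin-3, its product, activates integrins in blood cells. Fermt3 had signals of 66.1, 42.3 and 145 on Slc26a4+/+ arrays against 303.5, 360.5 and 372 on Slc26a4-/- arrays. The genotypes lay on either side of background, with Slc26a4-/- at least 1.33-fold higher (log2 difference 2.22, SE 0.44, adjusted p = 0.0365). The other 3 probe sets of Fermt3 were below background and did not pass. Without any 1 Slc26a4-/- array the adjusted p was 0.143 to 0.193, without Slc26a4+/+ replicate 1 it was 0.0520 and without Slc26a4+/+ replicate 2 it was 0.0908. Selplg, which codes for the P-selectin ligand of leukocytes, had signals of 35.9 to 238 on Slc26a4+/+ arrays against 268 to 377 on Slc26a4-/- arrays. These did not overlap and gave a bound of 1.26-fold on these arrays, but did not pass (adjusted p = 0.158). Without Slc26a4+/+ replicate 2, the array with the signal of 238, the adjusted p was 0.0101. It was 0.176 without Slc26a4+/+ replicate 1, 0.312 without Slc26a4+/+ replicate 3 and 0.33 to 0.464 without any 1 Slc26a4-/- array. With Xist as a covariate the log2 difference turned from 2.16 to -0.54.

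Cd44, the hyaluronan receptor of leukocytes and many other cells, rose 1.87-fold. Its signals were 2092, 2519 and 3063 on Slc26a4+/+ arrays against 4665, 4532 and 5013 on Slc26a4-/- arrays, above background on all arrays and without overlap (log2 difference 0.91, SE 0.16, adjusted p = 0.0217). Another probe set of Cd44 ran from 1074.5 to 2584 on Slc26a4+/+ arrays against from 4173 to 5613 on Slc26a4-/- arrays with a log2 difference of 1.33 (SE 0.30) and an adjusted p of 0.0617. The adjusted p of Cd44 was 0.103 to 0.147 without any 1 Slc26a4-/- array, and without Slc26a4+/+ replicate 2 it was 0.0947.

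Sirpa, an inhibitory receptor of macrophages, and its ligand Cd47, the signal that keeps a cell from being engulfed, did not pass. Sirpa had signals of 1312, 1393 and 1198.5 on Slc26a4+/+ arrays against 1828, 1742 and 1767 on Slc26a4-/- arrays. The genotypes were apart, but the log2 difference of 0.45 (SE 0.13) had an adjusted p of 0.163. The other 2 probe sets of Sirpa had log2 differences of -0.06, with overlapping signals above background, and -0.46, below background. Cd47 had a log2 difference of 0.18 (SE 0.20, adjusted p = 0.786).

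Among the adhesion genes of the immunoglobulin family known from neurons, Nrcam rose 2.10-fold. It codes for a neuronal cell adhesion molecule that binds itself and related molecules, and its signals were 1399.6, 1571 and 1257.5 on Slc26a4+/+ arrays against 3241, 2845 and 2782 on Slc26a4-/- arrays. The genotypes were apart by more than the range of either (log2 difference 1.07, SE 0.14, adjusted p = 0.00554), and Nrcam passed without any 1 Slc26a4-/- array (adjusted p 0.0384 to 0.0494). Another Nrcam probe set had a log2 difference of 0.38 and did not pass. Ncam1 and L1cam, the relatives of Nrcam in nerve, had log2 differences of 0.31 (SE 0.14, adjusted p = 0.415) and 0.02 (SE 0.18, adjusted p = 0.980).

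Alcam, which codes for the ligand of the T cell receptor CD6 and is also made by epithelia, fell in 2 of 5 probe sets. In the first the signals were 7939, 7956 and 11069 on Slc26a4+/+ arrays against 4581, 3431 and 4462 on Slc26a4-/- arrays (log2 difference -1.11, SE 0.18, adjusted p = 0.0146). In the second they were 5726, 5433.5 and 6161 on Slc26a4+/+ arrays against 3827, 2759.5 and 3256 on Slc26a4-/- arrays (log2 difference -0.83, SE 0.15, adjusted p = 0.0261). In both all Slc26a4-/- arrays lay below all Slc26a4+/+ arrays. The probe set of highest signal was lower too but did not pass (log2 difference -0.75, SE 0.19, adjusted p = 0.0977), so Alcam is not among the genes counted as changed. The adjusted p values of the 2 probe sets were 0.0602 to 0.0929 and 0.0592 to 0.168 without any 1 Slc26a4-/- array, and without Slc26a4+/+ replicate 2 that of the second was 0.0846.

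**Figure D3:**
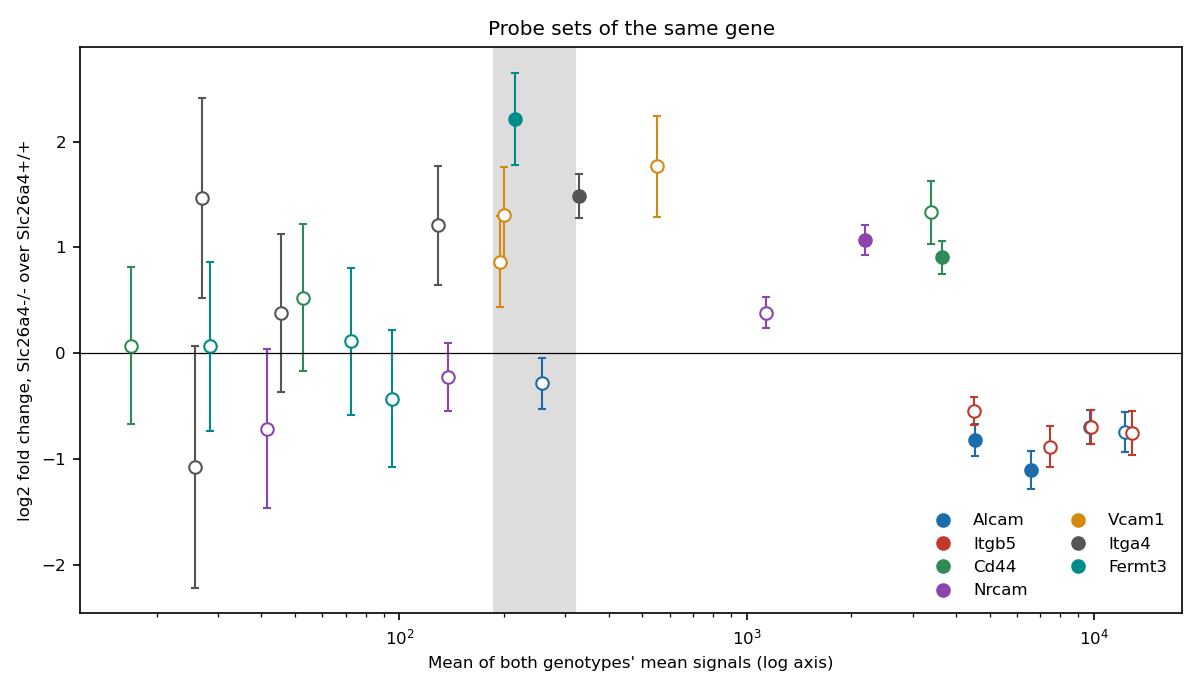
Fitted log2 fold change, Slc26a4-/- over Slc26a4+/+, with its standard error against the mean signal of both genotypes on a log axis, for every probe set of 7 genes. Filled points passed the threshold and the grey band is the range of background over the 6 arrays, 187.1 to 319.2; the 4 Itgb5 probe sets lie below 0, as do those of Alcam, while most other probe sets of Itga4, Fermt3 and Nrcam lie left of the band.

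The adaptors that connect integrins to actin and activate them gave 2 calls among 21 measured genes, both higher. Among all genes 1.88% were called higher and 0.803% lower. Fyb, the adaptor ADAP of T cells and myeloid cells that couples receptor signals to integrin activation, had signals of 81.2, 88.5 and 77.8 on Slc26a4+/+ arrays against 438, 400.3 and 508 on Slc26a4-/- arrays. The genotypes lay on either side of background, at least 1.73-fold apart (log2 difference 2.44, adjusted p = 0.00160), and Fyb passed without any 1 array. Tln1, which codes for talin, had signals of 1196, 1151 and 897.7 on Slc26a4+/+ arrays against 1742, 1988 and 1733 on Slc26a4-/- arrays. Its log2 difference was 0.76 (adjusted p = 0.0454), and the adjusted p was 0.175 to 0.246 without any 1 Slc26a4-/- array, 0.115 without Slc26a4+/+ replicate 2 and 0.0685 without Slc26a4+/+ replicates 2 and 3. The other 19 did not pass. Across these genes the median log2 difference was 0.22.

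Soluble and matrix ligands of integrins gave 0 calls among 14 measured genes by limma, with 5 higher and 0 lower at an unadjusted p under 0.05, where 8.48% and 6.42% of all genes were. The smallest p values were those of Npnt, the nephronectin that binds Itga8 (log2 difference 0.83, adjusted p = 0.114), and of tenascin C, Tnc, which binds Itga9 (1.48, adjusted p = 0.134). Further leukocyte counter-receptors gave 0 calls among 12 by limma, with 2 higher and 1 lower at an unadjusted p under 0.05, beside the same shares of all genes. Of these Jam2, a junctional molecule of endothelium that binds Itga4, had a log2 difference of 0.66 (adjusted p = 0.0650), and the sialomucin Cd34 had 1.20 (adjusted p = 0.0889). The methods' paired t-test, applied here with arrays paired by replicate number, called 0 genes of the 3 lists after Benjamini-Hochberg adjustment and 8 of them without it. Over all 45037 probe sets it called 0 after adjustment and, without it, 1782 higher and 2198 lower. By limma the 3 lists together held 10 calls without Slc26a4+/+ replicate 1, 1 without Slc26a4+/+ replicate 2 or any 1 Slc26a4-/- array, and 3 without Slc26a4+/+ replicates 2 and 3.

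Markers of cell types were read on the same arrays, where 1.88% of all genes were called higher and 0.803% lower. Of 10 macrophage markers 5 rose, Aif1, Cd68, Lyz2, Mpeg1 and Ptprc, and the summed signal of the list was 5343 to 7243 on Slc26a4+/+ arrays against 26930 to 27670 on Slc26a4-/- arrays. It was higher on every Slc26a4-/- array, as were Itgb2, Itga4, Fermt3, Icam1, Cd44 and Fyb, and also Itga7, Nrcam and Tln1. A shared direction does not match a list to particular genes, and the part of macrophages in these changes was not tested. T cell markers gave 0 of 6 calls with 5 of them below background on all arrays, Cd3d, Cd3e and Cd8b1 included, and a sum of 401.6 to 777.9 on Slc26a4+/+ arrays against 544 to 579 on Slc26a4-/- arrays. B cell markers gave 0 of 3 calls, with all 3 below background on all arrays. None of the 6 neutrophil markers passed or was above background on at least 2 arrays of a genotype, S100a8 among them, and their sum was 441.6 to 912.9 on Slc26a4+/+ arrays against 349.1 to 512.5 on Slc26a4-/- arrays. Platelet markers gave 0 of 4 calls with sums of 426.6 to 474.6 and 376.9 to 490.3. Both erythrocyte markers measured, Alas2 and Hba-a1, had negative log2 differences and did not pass. Alas2 (log2 difference -1.29) was lower on every Slc26a4-/- array, and the sums were 317.9 to 896.2 on Slc26a4+/+ arrays against 166.1 to 375.6 on Slc26a4-/- arrays.

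**Figure D4:**
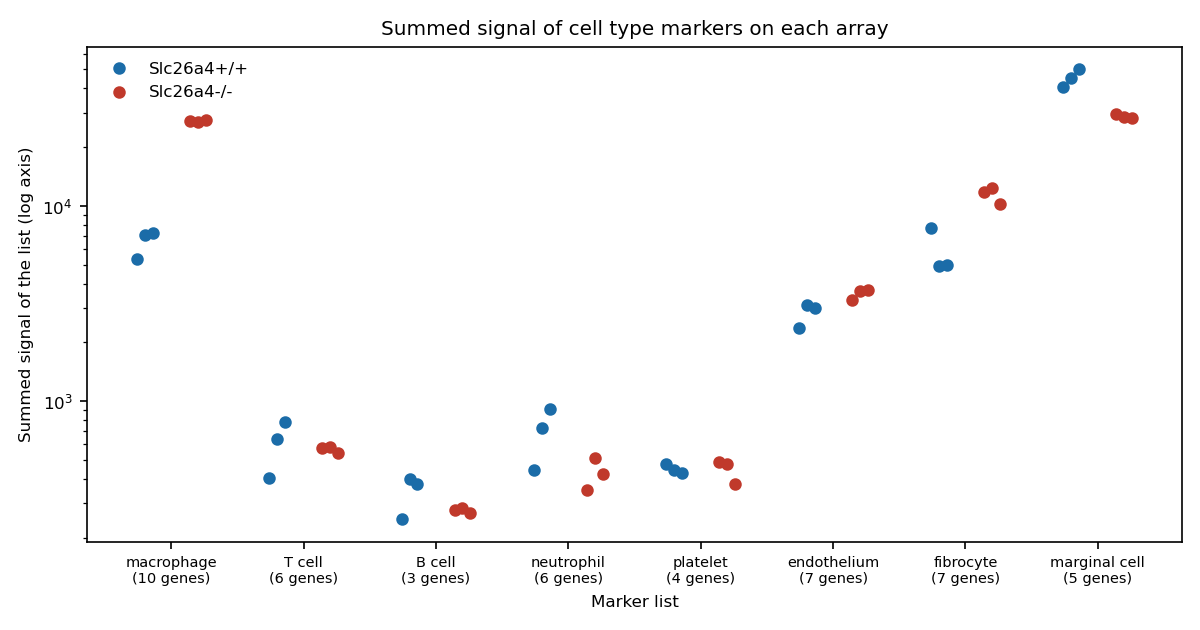
Summed signal of each marker list on each array, on a log axis, with 1 point per array. The macrophage, endothelium and fibrocyte sums lie higher and the marginal cell sums lower on all 3 Slc26a4-/- arrays, while T cell and platelet sums overlap between the genotypes.

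Endothelial markers gave 0 of 7 calls, and their sum was 2376 to 3101 on Slc26a4+/+ arrays against 3302 to 3687 on Slc26a4-/- arrays, higher on every Slc26a4-/- array as were Icam1 and Vcam1. Fibrocyte markers, which stand for connective tissue and for spiral ligament, the tissue next to stria vascularis, also moved. Of 7, Col1a2, Col3a1, Dcn, Otos and Ucma rose. Coch (log2 difference 0.17, adjusted p = 0.885) and Col1a1 (-0.59, adjusted p = 0.794) did not pass and overlapped between genotypes. The sum of the list was 4921 to 7658 on Slc26a4+/+ arrays against 10240 to 12410 on Slc26a4-/- arrays. Itga7, Itga8 and Nrcam moved in the same direction, as did Itgb2 and Fermt3. By quantitative RT-PCR the paper reports a small contamination between stria and spiral ligament, larger in Slc26a4-/- than in Slc26a4+/- mice. The part of carried-over spiral ligament in these values was not tested. Of 5 marginal cell markers Atp13a5 and Kcne1 fell, with sums of 40510 to 49960 and 28150 to 29610, in the same direction as Alcam and Itgb5. Among 4 intermediate cell markers Pmel, the one of lowest signal (means 212.1 and 647.9), rose. Dct, Kcnj10 and Tyr did not pass (log2 differences -0.22, -0.01 and 0.50). The sums, 39430 to 47460 on Slc26a4+/+ arrays against 43570 to 43900 on Slc26a4-/- arrays, overlapped. Basal cell markers gave 0 of 3 calls, with sums of 33830 to 34430 and 31700 to 33060. Schwann cell markers gave 0 of 2 calls and lay at sums of 2485 to 3866 and 2336 to 2616, and 4 neuron markers lay below background on all arrays. The part of these cell types in the values of Icam1, Vcam1, Itga7, Nrcam and Alcam was not tested.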

How the data were processed

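Stria vascularis RNA of 3 Slc26a4+/+ and 3 Slc26a4-/- pools was measured on Affymetrix mouse gene chips. The deposited values are 1 signal intensity per probe set and array, on a linear scale, which the authors made with GCOS, named in the submitters' processing notes. GCOS corrects background and scales each array. The sources used here give neither its version nor the scaling target. Arrays were assigned by their sample titles, which read control and knockout. That the controls were Slc26a4+/+ was taken from the study's methods. RNA of 2 animals was pooled on each array, and the mice of both genotypes were adults of about the same age. Precision is limited by the small number of arrays.

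Of 45101 probe sets 64 controls were left out. Of the 45037 tested, the platform annotation gave 34945 a single symbol and 932 more than 1, and the latter were left unnamed, as were 9160 that it does not list. All 40 genes matched the RefSeq gene table by gene number and 0 symbols changed. Signals under 1, 172 values, were raised to 1, and the genotypes were compared on the log2 scale by limma 3.58.1 in R 4.3.3 (lmFit, eBayes with trend, genotype alone), two-sided, with Benjamini-Hochberg adjustment over all probe sets and a threshold of 0.05. Where a gene had several probe sets, the one whose log2 signal averaged highest across the 6 arrays stood for it. Of the 40 genes 15 had 1 probe set and 25 had several, up to 7, and in 0 genes did probe sets pass in opposite directions.

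A gene was above background where it exceeded the 95th percentile of 44 probe sets of olfactory receptors on at least 2 arrays of a genotype, and 0 of these 44 passed the test. Where a genotype lay below background on all arrays, the lower bound of a fold set the mean of the brighter genotype against the mean, over the arrays of the dimmer genotype, of the higher of background and signal. The bound allows for background alone and not for the spread between arrays. A fitted log2 difference of such a gene includes signals under background and is no bound.

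The members, the lists of adaptors, ligands, counter-receptors and markers, and the tests were chosen with earlier results of these data known. Any member could be named. Values per array were given where a probe set passed and for Itgb2, Itgam, Itgax, Itgb1, Itgav, Cd44, Vcam1, Icam1, Fermt3 and Sirpa, and from each other list the genes that passed or, with none, those of the 2 smallest p. The alternatives were another pseudocount, centring or quantile normalization, no trend, array weights, a replicate block, the methods' paired t-test, a minimum mean signal, Xist as a covariate, another summary of probe sets, and each array left out. Promoter windows are from RefSeq on GRCm38.p6. The methods describe matched pairs of mice for the quantitative RT-PCR and judge the arrays by detection calls and ratios of mean signals, so running a t-test on arrays paired by replicate number was a choice made here. The quantitative RT-PCR, microscopy and Western blots were not analysed here.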

Additional observations from a re-analysis of the deposited data

How the results depend on the processing

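The count of integrin and adhesion probe sets was 7 higher and 2 lower, with 2 leukocyte integrins, 1 other integrin and 2 adaptors called. Without the trend of the spread on signal these became 0, 0, 0, 0 and 1, and with Xist as a covariate or by the methods' t-test after adjustment 0 each. Unadjusted, that t-test gave 12 higher and 6 lower probe sets, 2 other integrins and 8 adaptors, ligands or counter-receptors. Array weights gave 18, 10, 4 and 11 for the same 4 counts. Calls over the whole array moved too. Of all 45037 probe sets the unadjusted t-test called 1782 higher and 2198 lower, and array weights 2372 and 1712. Without the trend 93 were higher and 21 lower, and with Xist 27 and 0, against 535 and 243 in the main fit. Leaving out 1 array gave 1 to 11 higher, 0 to 8 lower, 0 to 3 leukocyte integrins, 0 to 3 other integrins and 1 to 10 adaptors, ligands or counter-receptors. Without Slc26a4+/+ replicates 2 and 3, chosen after seeing the data, there were 13 higher probe sets and 4 other integrins.

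A minimum mean signal of 300 gave 7 lower probe sets and 0 other integrins, centring on the median 1 lower and 1 adaptor, centring on the 75th percentile 1 adaptor, and quantile normalization or averaging the probe sets of each gene 2 other integrins. Counting Itga4 with the other integrins gave 1 leukocyte and 2 other integrins. Over the whole array centring on the median called 359 higher and 89 lower, 80.1% higher, against 535, 243 and 68.8%. The median log2 difference of leukocyte integrins, 0.70, was 0.72 to 0.89 without 1 array. With the minimum signal it was 1.57, which is the midpoint of Itga4 and Itgb2 alone, both of which reach that signal through Slc26a4-/-, so it is no check on the list. That of other integrins, 0.15, was -0.067 with Xist, 0.47 without Slc26a4+/+ replicates 2 and 3, and -0.02 to 0.31 without 1 array. No called integrin or adhesion probe set changed direction under any of these settings. A smaller number of arrays, and for the signal minimum a smaller number of tested probe sets, enter some of these settings by construction. For the rest the cause was not tested.

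Same-numbered arrays of the genotypes correlated at 0.094, 0.027 and 0.029 in their deviations from the genotype means, so the numbers were not taken to pair them. With the replicate number as a block 10 probe sets were higher and 2 lower, with 3 leukocyte integrins and 1 other integrin called. Genes below background in Slc26a4+/+, Itgb2, Itga4, Itga7, Icam1 and Fermt3 among them, have a lower bound or no fold, and this limits what these arrays can say of their size.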
